A study of Mus musculus with 6 samples.

Results

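The 6 genes Tcf4, Zeb2, Mef2c, Atrx, Ehmt1 and Mbd5 were taken by symbol from the 25239 genes counted in every library. They were chosen by name, because loss of their human counterparts gives syndromes that resemble Angelman or Rett syndrome. The choice was made with earlier results of these data known. All 6 were among the 14445 genes with enough counts to be tested. Expression was measured by RNA sequencing of the hippocampus of male C57BL/6 mice, aged 6 to 8 weeks by the study's methods, with 1 library per mouse. The controls were 3 Ube3a m+/p+ mice, labelled wild type, and the other group was 3 Ube3a m-/p+ mice, which lack a functional maternal copy of Ube3a and keep the paternal copy. The latter are called Ube3a-deficient here, and no treatment was given in the labels. Neurons express Ube3a mainly from the maternal copy and many glial cells from both, so the Ube3a m-/p+ hippocampus keeps some Ube3a transcript.

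Angelman syndrome follows loss of the maternal UBE3A ubiquitin ligase, with severe intellectual disability, absent speech, seizures and ataxia. Similar features arise from single genes of other kinds, and these 6 encode nuclear proteins that set which genes neurons transcribe. TCF4 (Pitt-Hopkins syndrome), ZEB2 (Mowat-Wilson syndrome) and MEF2C bind DNA at defined motifs, and ATRX (the X-linked alpha-thalassaemia and intellectual disability syndrome), EHMT1 (Kleefstra syndrome) and MBD5 act on chromatin. In most of these disorders loss of a single copy is enough for disease, so moderate differences in level are of interest. ATRX, on the X chromosome, is the exception among the 6, since most of those affected are boys with a single copy.

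The promoters of 4 of the genes are shown because they hold different numbers of the E-box, CANNTG, the motif that TCF4 and ZEB2 bind. Each runs from 250 bases before to 50 bases after the outermost annotated start in the RefSeq annotation of GRCm38.p6, is written 5′ to 3′ on the strand of the gene, and has each E-box in capitals. Which start is used in the hippocampus cannot be read from counts per gene. The Zeb2 window is chr2:45117393-45117692 (minus strand), the Mef2c window chr13:83503784-83504083 (plus strand), the Atrx window chrX:105929323-105929622 (minus strand) and the Ehmt1 window chr2:24919560-24919859 (minus strand).
Zeb2: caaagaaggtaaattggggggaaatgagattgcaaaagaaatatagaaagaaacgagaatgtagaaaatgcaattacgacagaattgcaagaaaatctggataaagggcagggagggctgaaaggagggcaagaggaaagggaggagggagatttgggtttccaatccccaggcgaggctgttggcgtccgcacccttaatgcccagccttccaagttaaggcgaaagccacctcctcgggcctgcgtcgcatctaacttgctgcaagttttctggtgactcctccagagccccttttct
Mef2c: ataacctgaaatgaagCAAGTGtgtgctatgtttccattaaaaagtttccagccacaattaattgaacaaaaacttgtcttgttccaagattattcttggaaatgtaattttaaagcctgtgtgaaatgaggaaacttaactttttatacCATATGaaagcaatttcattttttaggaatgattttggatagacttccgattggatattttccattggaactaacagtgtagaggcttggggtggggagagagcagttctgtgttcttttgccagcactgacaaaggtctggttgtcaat
Atrx: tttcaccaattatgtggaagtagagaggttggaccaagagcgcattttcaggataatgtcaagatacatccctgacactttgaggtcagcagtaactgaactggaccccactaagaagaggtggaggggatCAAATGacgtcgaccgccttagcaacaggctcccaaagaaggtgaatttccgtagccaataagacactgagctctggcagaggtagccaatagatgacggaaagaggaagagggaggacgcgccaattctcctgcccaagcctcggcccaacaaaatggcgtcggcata
Ehmt1: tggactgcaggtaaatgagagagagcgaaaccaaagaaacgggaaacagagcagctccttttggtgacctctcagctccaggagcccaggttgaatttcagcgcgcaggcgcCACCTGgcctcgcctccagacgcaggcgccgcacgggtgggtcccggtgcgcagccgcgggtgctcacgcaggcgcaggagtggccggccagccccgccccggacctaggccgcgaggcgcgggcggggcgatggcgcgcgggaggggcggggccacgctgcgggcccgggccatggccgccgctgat

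Both strands were searched, and the E-box pattern reads the same on both. The Zeb2 window held 0 E-boxes, the Atrx and Ehmt1 windows 1 each and the Mef2c window 2. The Mbd5 window, not shown, held 2. No window was available for Tcf4, so its promoter was not searched. The E-box is common, with at least 1 in 72.3% of the 32851 RefSeq promoter windows of this length. The Ehmt1 E-box is CACCTG, the form of the motif preferred by ZEB proteins, which 20.2% of all windows held. AGGTCA, the core motif of retinoic acid receptors and other nuclear receptors, occurred once in each of the Atrx, Ehmt1 and Mbd5 windows and in 16.3% of all windows. The MEF2 consensus was in none of the 5 windows searched and in 1.86% of all windows. The windows differed most in base composition. The GC content was 71.7% with 34 CG dinucleotides for Ehmt1, 67.0% with 19 for Mbd5, 50.3% with 11 for Atrx, 49.3% with 9 for Zeb2 and 35.7% with 1 for Mef2c, against a median of 52.7% and 7 over all windows. A match describes the letters of the window only.

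Ube3a, the gene that differs by design, was measured first. Its level was 103.5, 140.7 and 151.0 counts per 1000000 counts on genes (CPM) in Ube3a m+/p+ mice 1, 2 and 3, and 96.8, 82.9 and 80.6 CPM in Ube3a-deficient mice 1, 2 and 3. Every Ube3a-deficient mouse lay below every control, and the log2 fold change was -0.58 (SE 0.12) with an adjusted p of 0.0363 by edgeR's quasi-likelihood test with Benjamini-Hochberg adjustment over all genes tested. The antisense transcript Snhg14 shares 1803 bases of exon with Ube3a, and with the strand setting not known reads there cannot be assigned. The libraries held 7293272 to 11314409 counts on genes. Their base composition differed. Across 14201 tested genes with an annotated transcript, GC content and the deviation of a gene from its 6-library average had a Spearman's rho of -0.51 and -0.57 for control mice 2 and 3, 0.53 and 0.53 for Ube3a-deficient mice 2 and 3, and 0.05 and 0.06 for the mice numbered 1. The excitatory neuron markers (Slc17a7, Camk2a and others) summed to 8338 to 10588 CPM and the 6 dentate granule cell markers, Prox1 among them, to 455 to 506 CPM over the 6 libraries. None of these markers was at 0.

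Of the 6 genes, 0 passed the test by edgeR, which was an adjusted p below 0.05 with a fold change above 1.2, against 2.01% of all 14445 genes. At an unadjusted p below 0.05, 4 of the 6 were lower in Ube3a-deficient mice (Tcf4, Zeb2, Mef2c and Atrx), against 12.4% of all genes, and by DESeq2 with the same thresholds 2 of the 6 passed (Zeb2 and Atrx), against 6.69%. Other settings gave 1 of the 6 (Zeb2) with size factors of the DESeq2 type (RLE), with total gene counts only and with a minimum of 10 counts in every sample, where 2.76%, 2.04% and 2.87% of all genes passed, and 2 (Zeb2 and Atrx) with no filter on low counts, where 6.1% passed. With an unadjusted p and the same fold 3 of the 6 passed (Zeb2, Atrx and Mef2c), against 19.6%. Leaving out control mouse 1 gave 3 (the same 3 genes), against 17.6%, leaving out Ube3a-deficient mouse 1 gave 4 (Tcf4 as well), against 12.5%, and leaving out any other mouse gave 0. The fitted log2 fold change was below 0 for 6 of 6, and for 49.7% of all genes. The 6 were chosen with earlier results of these data known, so their counts beside those of all genes are a description only. The median log2 fold change of the 6 was -0.26, beside 0.00 for all genes. CPM of the genotypes did not overlap for 3 of them (Tcf4, Zeb2 and Ehmt1), against 14.2% of all genes that were lower in this way. The labels state 3 mice of each genotype and no litter, day or batch. An exact two-sided permutation test over 3 against 3 mice cannot give a p below 0.1. In whole hippocampus, fewer cells of a type and less RNA per cell cannot be told apart.

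**Figure D1:**
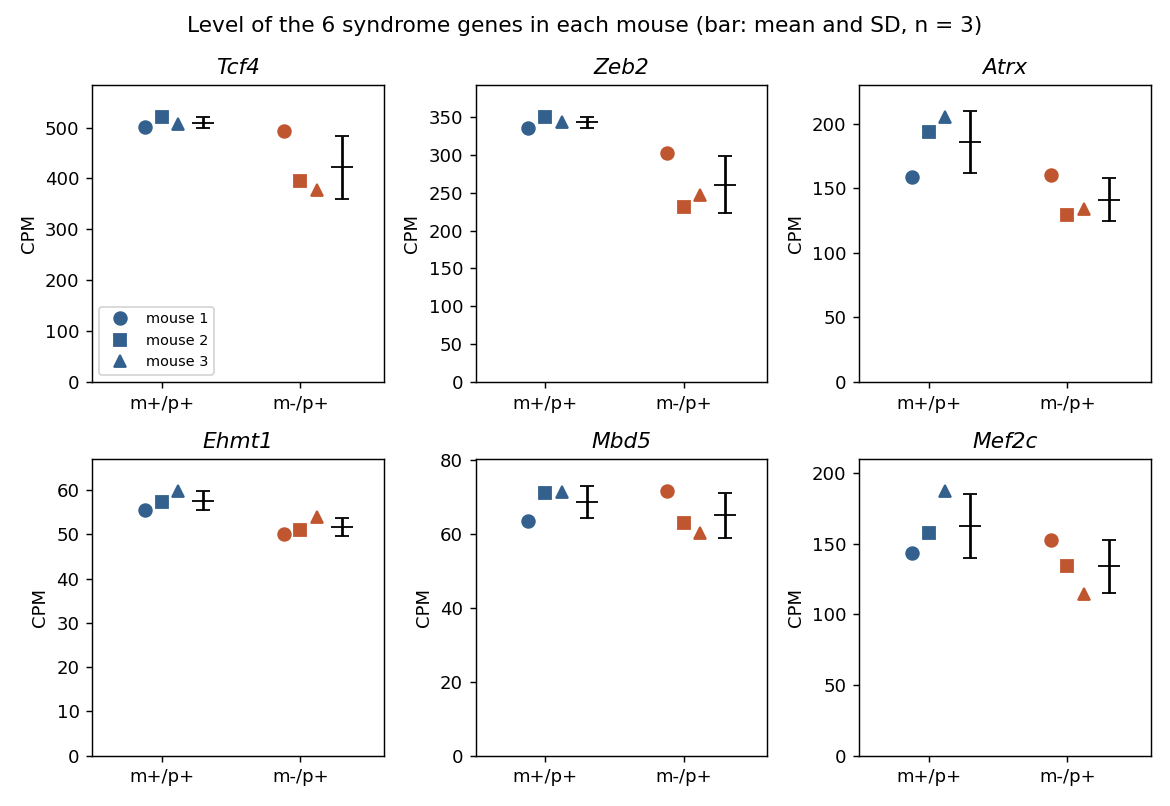
CPM of each gene in each mouse, with Ube3a m+/p+ in blue and Ube3a m-/p+ in orange; the marker shape gives the mouse number and the black bar the mean and SD of 3 mice. Ube3a-deficient mice 2 and 3 lie below all 3 controls for Tcf4, Zeb2, Mef2c and Atrx, whereas mouse 1 lies at 152.5 and 160.2 CPM within the control range for Mef2c and Atrx, and at 493.0 and 302.8 CPM below it for Tcf4 and Zeb2.

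Tcf4 encodes a class I basic helix-loop-helix protein that pairs with neuronal partners such as NEUROD1 at E-boxes. It was the most highly expressed of the 6, with 25284 counts over the 6 libraries. Its level was 500.3, 521.3 and 506.4 CPM in control mice 1, 2 and 3, and 493.0, 395.4 and 377.8 CPM in Ube3a-deficient mice 1, 2 and 3. The controls lay close together, Ube3a-deficient mouse 1 sat just below them and the other two Ube3a-deficient mice were clearly lower. The mean was 509.3 ± 10.8 CPM (SD, n = 3) in controls and 422.1 ± 62.0 CPM (SD, n = 3) in Ube3a-deficient mice. The log2 fold change was -0.25 (SE 0.10, 95% interval -0.46 to -0.05), a fitted difference of -16.2%, and the adjusted p was 0.124 by edgeR. The exact permutation p was 0.1. The gene lies at chr18:69343356-69689079 on the plus strand (GENCODE M21, GRCm38).

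Zeb2 encodes a zinc-finger repressor that binds E-boxes, recruits CtBP and the NuRD complex, and is required for the development of cortical neurons and oligodendrocytes. Its level was 335.5, 350.3 and 342.8 CPM in control mice 1, 2 and 3, and 302.8, 231.5 and 246.8 CPM in Ube3a-deficient mice 1, 2 and 3. The genotypes did not overlap, and mouse 1 was again the Ube3a-deficient mouse nearest to the controls. Means were 342.9 ± 7.42 and 260.3 ± 37.5 CPM (SD, n = 3 each). On the log2 scale the fold change was -0.38 (SE 0.10, 95% interval -0.58 to -0.18), a fitted difference of -23.2%, with an adjusted p of 0.0507 by edgeR, just short of the threshold, and 0.0117 by DESeq2. The exact permutation p was 0.1. Zeb2 lies at chr2:44983632-45117395 on the minus strand, and exons of the antisense gene Zeb2os overlap its exons over 653 bases. Zeb2os had 70 to 141 counts per library, beside 2500 to 3039 for Zeb2, and its own log2 fold change was 0.05 with an adjusted p of 0.897 by edgeR.

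Mef2c encodes a MADS-box factor that is switched on by neuronal activity and limits the number of excitatory synapses on hippocampal neurons. Its level was 143.2, 157.7 and 187.8 CPM in control mice 1, 2 and 3, and 152.5, 134.6 and 114.7 CPM in Ube3a-deficient mice 1, 2 and 3. The groups overlapped, since Ube3a-deficient mouse 1 was above control mouse 1. Means were 162.9 ± 22.8 and 134.0 ± 18.9 CPM (SD, n = 3 each). The log2 fold change was -0.26 (SE 0.11, 95% interval -0.50 to -0.03), with an adjusted p of 0.163 by edgeR and an exact permutation p of 0.2. The gene lies at chr13:83504034-83667080 on the plus strand.

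Atrx encodes a SNF2-type chromatin remodeller that, with DAXX, places histone H3.3 in heterochromatin, and it lies on the X chromosome (chrX:105797615-105929403, minus strand), so each of these male mice carries 1 copy. Its level was 158.8, 193.5 and 205.4 CPM in control mice 1, 2 and 3, and 160.2, 129.0 and 133.9 CPM in Ube3a-deficient mice 1, 2 and 3. The mice numbered 1 were nearly equal, and the other mice separated by genotype. Means were 185.9 ± 24.2 and 141.1 ± 16.8 CPM (SD, n = 3 each). This was a log2 fold change of -0.38 (SE 0.11, 95% interval -0.61 to -0.16), a fitted difference of -23.2%, with an adjusted p of 0.0608 by edgeR and 0.024 by DESeq2. The exact permutation p was 0.2.

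Ehmt1 encodes GLP, which forms with G9a (Ehmt2) the main enzyme complex for mono- and dimethylation of histone H3 at K9 in euchromatin. Its level was 55.6, 57.3 and 59.9 CPM in control mice 1, 2 and 3, and 50.1, 50.9 and 53.9 CPM in Ube3a-deficient mice 1, 2 and 3. Every Ube3a-deficient mouse was below every control, by a small step, and here mouse 1 was the lowest of its group rather than the highest. Means were 57.6 ± 2.18 and 51.6 ± 2.02 CPM (SD, n = 3 each). Their log2 fold change was -0.14 (SE 0.09, 95% interval -0.34 to 0.06), with an adjusted p of 0.365 by edgeR and an exact permutation p of 0.1. With 2993 counts over the 6 libraries Ehmt1 was also the least counted of the 6. It lies at chr2:24789928-24919614 on the minus strand.

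Mbd5 encodes a methyl-CpG-binding-domain protein that associates with the PR-DUB complex, a deubiquitinase of histone H2A. Its level was 63.6, 71.1 and 71.4 CPM in control mice 1, 2 and 3, and 71.8, 63.0 and 60.4 CPM in Ube3a-deficient mice 1, 2 and 3. The groups overlapped across their whole ranges, and the highest of all 6 values belonged to a Ube3a-deficient mouse. Means were 68.7 ± 4.43 and 65.1 ± 5.99 CPM (SD, n = 3 each). The fitted log2 fold change was -0.06 (SE 0.10, 95% interval -0.27 to 0.14), with an adjusted p of 0.727 by edgeR and an exact permutation p of 0.5. The fitted values of Zeb2 and Atrx, both -0.38, lie outside this interval. Their own 95% intervals (-0.58 to -0.18 and -0.61 to -0.16) overlap with it. Mbd5 lies at chr2:48949508-49325405 on the plus strand, and exons of Orc4, on the opposite strand, overlap its exons over 136 bases. Orc4 had 409 to 584 counts per library, beside 521 to 713 for Mbd5, and its log2 fold change was -0.49 with an adjusted p of 0.0601 by edgeR. The strand setting of the counting is not given in the sources used here, so reads in such overlaps cannot be assigned to a strand.

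Levels were compared between genes per kilobase of the longest annotated transcript. In controls the order was Tcf4 at 59.4 ± 1.26 CPM per kb, Zeb2 at 37.6 ± 0.813, Mef2c at 26.0 ± 3.63, Atrx at 18.1 ± 2.36, Ehmt1 at 9.68 ± 0.366 and Mbd5 at 8.04 ± 0.519 (SD, n = 3 each). No neighbours in this order overlapped in their control mice. The order in Ube3a-deficient mice was the same, from 49.2 ± 7.23 CPM per kb for Tcf4 to 8.67 ± 0.339 for Ehmt1 and 7.62 ± 0.701 for Mbd5. With the total exon length of each gene in place of the longest transcript the order of the means held, but Atrx (7.30 to 9.44 CPM per kb) overlapped with both Mef2c (9.11 to 11.95) and Ehmt1 (6.85 to 7.38) in controls.

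The 6 genes differ in base composition, and the 4 lowest in GC content had the 4 largest differences between genotypes. The longest transcripts of Atrx, Zeb2, Mef2c and Tcf4 are 39.5%, 40.6%, 40.8% and 40.9% GC, which places them at the 4.46th to 8.09th percentile of the tested genes. Mbd5 is 45.8% and Ehmt1 51.2%, near the median of 49.9%. Much of the low GC content lies in long 3′ untranslated regions. That of Tcf4 is 6007 bases at 36.5% GC beside a coding part at 54.2%, that of Zeb2 4941 bases at 33.2% beside 48.1%, and that of Mef2c 4447 bases at 37.1% beside 50.5%. Atrx is low in GC in its coding part too, with 40.9% over 7431 bases. Among all 1366 tested genes of 38 to 42% GC, the median log2 fold change was -0.27 and 88.4% were lower in Ube3a-deficient mice, whereas among the 2996 genes of 50 to 54% GC the median was 0.05 and 37.4% were lower. Tcf4 and Mef2c, at -0.25 and -0.26, were thus at the median of genes of their GC content, and Zeb2 and Atrx, both at -0.38, were below it.

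**Figure D2:**
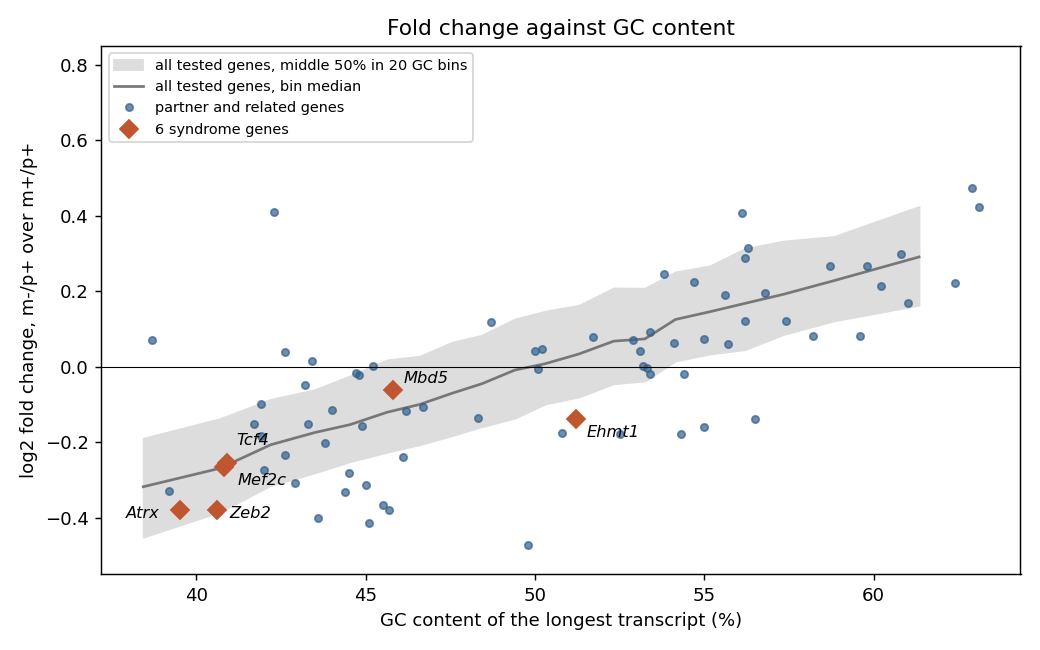
Log2 fold change (Ube3a m-/p+ over Ube3a m+/p+) against the GC content of the longest transcript, in percent, for the 6 genes (orange), their partner and related genes (blue) and all tested genes in 20 bins (grey line, median; band, middle 50%). The line runs from -0.32 in the bin lowest in GC to 0.29 in the highest, with Tcf4 and Mef2c close to it, Zeb2 and Atrx below it within the band, and Ehmt1 below the band.

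The trend with GC content and transcript length was then fitted in each library and removed before the test. On this corrected scale the log2 fold change was 0.01 (95% interval -0.14 to 0.16) for Tcf4, -0.00 (-0.15 to 0.15) for Mef2c, -0.07 (-0.22 to 0.09) for Atrx and -0.10 (-0.26 to 0.05) for Zeb2. The corrected values of these 4 genes, low in GC, were thus near 0, with adjusted p from 0.57 to 0.997 by edgeR. Ehmt1 kept its value, at -0.15 (-0.33 to 0.03) with an adjusted p of 0.463, and Mbd5 turned to 0.08 (-0.08 to 0.25) with an adjusted p of 0.704. Of the 6 genes, 0 passed the test after correction, against 0.648% of all genes, and 0 had an unadjusted p below 0.05. The fitted trend itself differed between genotypes by -0.31 for Atrx, -0.28 for Zeb2, -0.27 for Tcf4, -0.26 for Mef2c, -0.14 for Mbd5 and 0.01 for Ehmt1 on the log2 scale. It was near 0 for Tcf4, Zeb2, Atrx and Mef2c in both mice numbered 1 (-0.00 to 0.03). Between these mice the level was 500.3 in the control and 493.0 CPM in the Ube3a-deficient mouse for Tcf4, 158.8 and 160.2 CPM for Atrx, 143.2 and 152.5 CPM for Mef2c, and 335.5 and 302.8 CPM for Zeb2, the widest gap of the 4. On the corrected scale Ube3a was at -0.20 (95% interval -0.36 to -0.03) with an adjusted p of 0.24 by edgeR, beside -0.58 uncorrected. Its transcript is 36.9% GC. Between the mice numbered 1, Ube3a was 103.5 CPM in the control and 96.8 CPM in the Ube3a-deficient mouse. The correction removes the trends with GC content and with length together, so the change cannot be assigned to either. Length differed between the libraries too, with a Spearman's rho between length and deviation of 0.24 and 0.19 for control mice 2 and 3 and -0.20 and -0.36 for Ube3a-deficient mice 2 and 3, and the 6 transcripts lie at the 84.6th to 97.6th percentile of length. Genotype and GC trend coincide in 4 of the 6 libraries and cannot be told apart in them.

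**Figure D3:**
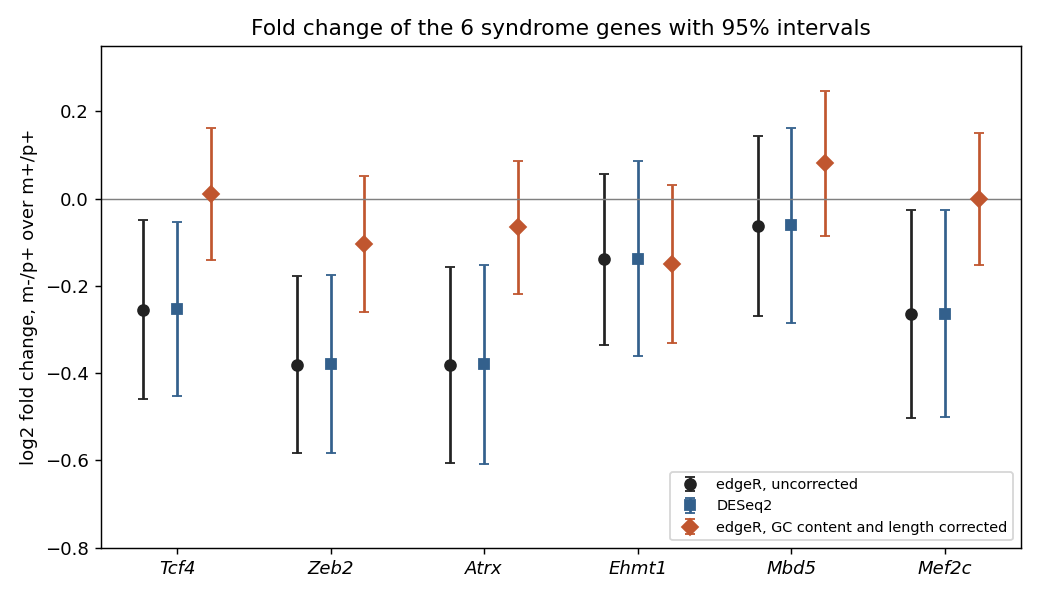
Log2 fold change of each gene (Ube3a m-/p+ over Ube3a m+/p+) with its 95% interval by edgeR (black), DESeq2 (blue) and edgeR after the GC content and length correction (orange). Both uncorrected tests give -0.38 for Zeb2 and Atrx, and the corrected values are -0.10 and -0.07, with intervals that include 0, as they do for all 6 genes.

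Among 14 other genes of Angelman-like or Rett-like disorders, 0 passed the test by edgeR, 9 were lower and 5 higher in the mean, and the median log2 fold change was -0.06. At an unadjusted p below 0.05 there were 3, all lower, and by DESeq2 1 passed. Over all 14445 genes, 2.01% passed by edgeR, 3560 had an unadjusted p below 0.05 and 6.69% passed by DESeq2. These shares apply beside the counts of each list below too. Cntnap2, an axonal adhesion molecule that clusters potassium channels and whose loss of both copies gives a Pitt-Hopkins-like disorder, was 84.5, 85.9 and 93.1 CPM in control mice 1, 2 and 3, and 83.4, 65.9 and 64.8 CPM in Ube3a-deficient mice 1, 2 and 3. The genotypes did not overlap, and mouse 1 was again the Ube3a-deficient mouse nearest to the controls. The value for Cntnap2 was -0.28 on the log2 scale (SE 0.10, adjusted p 0.114 by edgeR), and -0.11 (adjusted p 0.58) after the GC content and length correction.

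The direct relatives of the 6 genes were measured in the same libraries. For Tcf4 these are the E proteins Tcf12, at a log2 fold change of -0.33 (adjusted p 0.0763 by edgeR), and Tcf3, at 0.17 (adjusted p 0.405). After the GC content and length correction Tcf12 was at -0.16 (adjusted p 0.373 by edgeR) and Tcf3 at -0.10 (adjusted p 0.731). Of the 10 E proteins and partners tested, 0 passed by edgeR (5 at an unadjusted p below 0.05, 2 by DESeq2, Id2 and Neurod1), and 6 were lower in the mean and 4 higher. Id2, which blocks E proteins, was 52.3, 63.4 and 62.7 CPM in control mice 1, 2 and 3, and 45.7, 45.8 and 40.7 CPM in Ube3a-deficient mice 1, 2 and 3. Its log2 fold change of -0.41 had an adjusted p of 0.0503 by edgeR and 0.0199 by DESeq2, and it is named after its values were seen. After the GC content and length correction Id2 was at -0.34 (adjusted p 0.0689 by edgeR) and Neurod1 at -0.25 (adjusted p 0.247). For Zeb2, Zeb1 was at -0.24 (adjusted p 0.178) and the corepressors Ctbp1 and Ctbp2 at 0.12 (adjusted p 0.364) and -0.16 (adjusted p 0.412). Of the 16 genes of the Zeb1, CtBP, SMAD and NuRD list, 0 passed by edgeR (2 at an unadjusted p below 0.05, 1 by DESeq2, Chd3). The fitted log2 fold change was below 0 for 7 and above 0 for 9, with a median of 0.02. Chd3 was at 0.41 (adjusted p 0.0591 by edgeR), and at 0.30 (adjusted p 0.0867 by edgeR) after the GC content and length correction.

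Among the chromatin genes, Daxx, the partner of Atrx, was at 0.31 (adjusted p 0.162 by edgeR), and of the 8 genes of the Atrx, Daxx, H3.3 and heterochromatin list 0 passed by either edgeR or DESeq2 (1 at an unadjusted p below 0.05, Daxx), with a median of 0.03. After the GC content and length correction Daxx was at 0.14 (adjusted p 0.643 by edgeR). Ehmt2, the partner of Ehmt1, was 220.2, 199.3 and 194.2 CPM in control mice 1, 2 and 3, and 222.4, 260.7 and 261.5 CPM in Ube3a-deficient mice 1, 2 and 3, with a log2 fold change of 0.30 (adjusted p 0.0717 by edgeR, 0.0386 by DESeq2). Its transcript is 60.8% GC, and after the correction the value was 0.04 (adjusted p 0.82). The other 2 genes tested of this complex, Wiz at 0.20 (adjusted p 0.231) and Zfp644 at -0.33 (adjusted p 0.0911), did not pass, so 0 of 3 did by edgeR (2 at an unadjusted p below 0.05, 1 by DESeq2). After the correction Wiz was at 0.06 (adjusted p 0.802 by edgeR) and Zfp644 at -0.03 (adjusted p 0.933). The ratio of Ehmt1 to Ehmt2 CPM was 0.253, 0.287 and 0.309 in control mice 1, 2 and 3, and 0.225, 0.195 and 0.206 in Ube3a-deficient mice 1, 2 and 3. This was the only 1 of 7 such ratios between a gene and its relative that did not overlap between genotypes (exact permutation p 0.1, Benjamini-Hochberg adjusted over the 7 ratios 0.467), and the ratios were chosen after the levels had been seen. The ratios are of uncorrected levels, and the transcripts of Ehmt1 and Ehmt2 differ in GC content, at 51.2% and 60.8%. After the GC content and length correction the log2 fold changes were -0.15 for Ehmt1 and 0.04 for Ehmt2. The part of the GC trend in this ratio was not tested.

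Of 13 relatives of Mbd5 and genes of the PR-DUB complex, 1 passed the test by edgeR. At an unadjusted p below 0.05 there were 6, with 4 higher and 2 lower, against 3560 of all 14445 genes. By DESeq2 2 passed, Mbd3 as higher and Ogt, an O-GlcNAc transferase, as lower (-0.31, adjusted p 0.0354 by DESeq2 and 0.0745 by edgeR). After the correction Ogt was at -0.11 (adjusted p 0.492 by edgeR). Mbd3, a subunit of the NuRD complex, rose from 83.3, 73.9 and 73.6 CPM in control mice 1, 2 and 3 to 86.9, 110.9 and 118.2 CPM in Ube3a-deficient mice 1, 2 and 3. All Ube3a-deficient mice were above all controls, mouse 1 by the least. The log2 fold change was 0.47 (SE 0.11, adjusted p 0.043 by edgeR), and 0.12 (adjusted p 0.538) after the correction, with a transcript of 62.9% GC. Mbd6, the closest relative of Mbd5, was at 0.42 (adjusted p 0.131), with a similar GC content of 63.1%, and at 0.14 (adjusted p 0.498) after the correction. For Mef2c, Mef2a was at -0.27 (adjusted p 0.0703) and Mef2d at 0.07 (adjusted p 0.636). The Mef2a transcript is close to that of Mef2c in GC content and the Mef2d transcript is higher. Of the Mef2 and class IIa deacetylase genes 6 of 7 had enough counts to be tested and 0 passed (3 at an unadjusted p below 0.05, 1 by DESeq2, Mef2a), with 3 lower and 3 higher. After the correction Mef2a was at -0.05 (adjusted p 0.802 by edgeR) and Mef2d at -0.03 (adjusted p 0.882). Over all 70 partner and related genes tested, the fitted log2 fold change was below 0 for 35 and above 0 for 35, with a median of -0.00. Across the 76 genes of the set and these lists, Spearman's rho between GC content and log2 fold change was 0.69 (a description across genes, which are not replicates), beside 0.62 over all 14201 genes, and -0.06 after the correction.

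**Figure D4:**
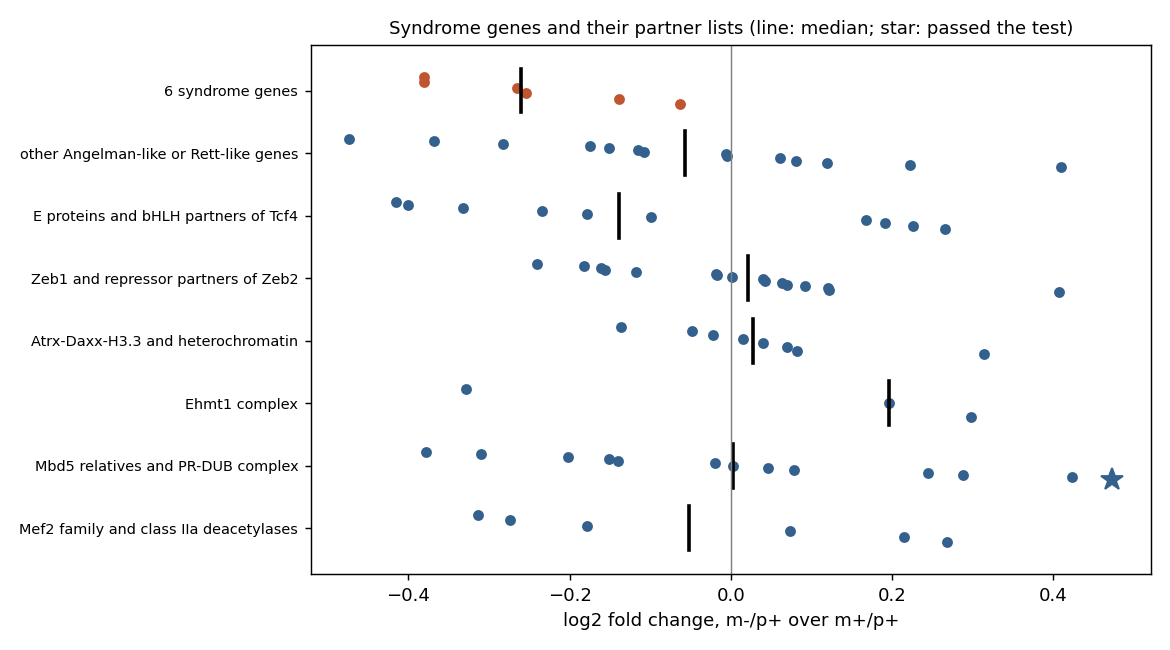
Log2 fold change (Ube3a m-/p+ over Ube3a m+/p+) of the 6 genes and of each partner list, 1 point per tested gene, with the median as a black line and a star for a gene that passed the test by edgeR. The 6 genes all lie below 0, with a median of -0.26, the lists spread to both sides, and Mbd3 at 0.47 is the only star.

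The genes whose levels followed each of the 6 most closely were found by the root mean square difference of centred log2 CPM over the 6 libraries, among 10422 genes with a mean of at least 10 CPM. These levels were not corrected for GC content and length, so genes that share the GC trend of the libraries can lie close. Shared regulation was not tested. The nearest to Tcf4 were Ufl1 (difference 0.0231), Tjp1 and Epha3, to Zeb2 Zfp322a (0.0377), Zfp715 and Trappc13, to Atrx Septin7 (0.0211) and Wac, and to Mef2c Togaram1 (0.0296), Dock11 and Mbtd1. Nearest to Ehmt1 were Zmat3 (0.0222), Csnk1g3 and Tmed10, and Mllt10 (0.0169) and Nicn1 were among the 3 nearest to Mbd5. The spread of the genes themselves, measured in the same way around their own mean, was 0.175 for Tcf4, 0.226 for Zeb2, 0.237 for Atrx, 0.206 for Mef2c, 0.0842 for Ehmt1 and 0.0927 for Mbd5.

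Markers of the cell types of the hippocampus were set beside these levels. The 8 oligodendrocyte markers summed to 8350 to 8469 CPM in controls and 6958 to 7963 CPM in Ube3a-deficient mice, the 8 microglia markers to 408 to 445 and 377 to 396 CPM, and the 7 interneuron markers to 598 to 638 and 527 to 573 CPM. These 3 sums did not overlap between genotypes, but single markers of each list went both ways. The fitted log2 fold change was above 0 for 3 of 8 oligodendrocyte, 4 of 8 microglia and 4 of 7 interneuron markers. After the GC content and length correction, 7 of 8 oligodendrocyte, 7 of 8 microglia and 5 of 7 interneuron markers were below 0. So were 5 of 6 astrocyte, 5 of 6 oligodendrocyte precursor, 3 of 6 endothelial and 3 of 6 dentate granule cell markers. Of the other lists, 1 of 6 excitatory neuron markers and 0 of 8 meninges and choroid plexus markers were below 0. Among all genes, 7455 were below 0 and 6746 above after this correction. The dentate granule cell sum did not overlap either, at 479.8 to 506 CPM in controls and 455 to 479 CPM in Ube3a-deficient mice. Of its 6 markers, 3 had a fitted log2 fold change above 0 and 3 below. The astrocyte sum (2124 to 2158 and 2087 to 2160.4 CPM) and the excitatory neuron sum (8338 to 9857 and 9567 to 10588 CPM) overlapped, as did the oligodendrocyte precursor sum (389.7 to 417 and 391 to 398 CPM) and the endothelial sum (230.3 to 249.7 and 218 to 254 CPM). Among the single markers, Pdgfra passed the test by edgeR as lower and Col1a1 as higher. After the correction Pdgfra (-0.36, adjusted p 0.0461 by edgeR) and Mobp (-0.33, adjusted p 0.0431) passed as lower. Col1a1 then stood at 0.55 and did not pass (adjusted p 0.075 by edgeR). The sum of 8 meninges and choroid plexus markers ranged from 176 to 2254 CPM in controls and from 183 to 2356 CPM in Ube3a-deficient mice, so the mice of each genotype differed widely. The fitted log2 fold change was above 0 for all 8 of these markers, with a median of 0.44. The part of cell composition in the levels of the 6 genes was not tested.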

How the data were processed

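RNA from the hippocampus of 6 mice was sequenced, with 3 libraries per genotype by the labels. The authors deposited counts, whole numbers of reads per gene symbol and library, without normalization or pooling. The submitters' processing notes name STAR 2.7.4a, HTSeq and mm10. The annotation and strand setting are not given in the sources used here. Summary lines, left out, held 54.1 to 55.0% of the reads listed as on no gene.

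CPM was computed on the total gene counts. Counts were tested in R 4.3.3 with edgeR 4.0.16 (filterByExpr, TMM, robust quasi-likelihood F test, genotype only, two-sided), with Benjamini-Hochberg adjustment over all genes kept, and a gene passed below 0.05 with a fold above 1.2. DESeq2 1.42.0, other scalings and filters, the replicate number as a block, each sample left out, and natural splines (5 degrees of freedom) on GC content and length per library were the alternatives. The fits were run on simulated data in which the changed genes were drawn without regard to GC content. These runs cannot show how the correction treats genes whose difference follows the GC trend. GC content, length and positions came from GENCODE M21 (GRCm38), and 98.3% of tested genes matched by symbol.

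The members and lists were chosen with earlier results of these data known. Genes named are the 6 members, called list genes, direct relatives, genes of similar disorders, the 3 nearest in profile, and, after their values were seen, Id2, Neurod1, Chd3, Ctbp1, Wiz, Zfp644, Ogt, Orc4, Zeb2os and Snhg14. Gene Ontology terms and proteins were not analysed here. Some genes that the rule names are not reported here.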

Additional observations from a re-analysis of the deposited data

How the results depend on the processing

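Counts of genes passing the test depended on the setting. All genes gave 290 by edgeR, 967 by DESeq2, 1176 with no filter on low counts, 2832 at an unadjusted p, 92 after the GC content and length correction, 13 with that correction and the replicate block, and 0 to 2582 with each mouse left out (2582 without control mouse 1, 1816 without Ube3a-deficient mouse 1, 2 without Ube3a-deficient mouse 3, and 0 for the others). Total counts as the scaling gave 170 lower and 125 higher genes, in place of 143 and 147. Of the 6 genes, 1 passed (Zeb2) with RLE size factors, with total gene counts only and with at least 10 counts in every sample, 2 (Zeb2 and Atrx) by DESeq2 and with no filter, 3 (Zeb2, Atrx and Mef2c) at an unadjusted p, and 0 to 4 with a mouse left out (3 without control mouse 1, adding Mef2c, and 4 without Ube3a-deficient mouse 1, adding Tcf4 as well). Of the 70 related genes tested (71 with no filter), 1 passed by edgeR, against 2.01% of all genes. With RLE size factors, total counts or at least 10 counts 3 passed, against 2.76%, 2.04% and 2.87% of all genes. By DESeq2 and with no filter 8 passed each, against 6.69% and 6.1%, and at an unadjusted p 19, against 19.6%. After the correction 0 passed with or without the block, against 0.648% of all genes without it. Leaving out control mouse 1 gave 19, against 17.6%, and leaving out Ube3a-deficient mouse 1 gave 15, against 12.5%. Leaving out any other mouse gave 0.

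The log2 fold change of Zeb2, with its adjusted p passing, was -0.38 with RLE size factors, -0.40 with total counts, -0.38 by DESeq2, -0.37 with no filter and -0.38 with at least 10 counts. Atrx passed at -0.38 by DESeq2 and -0.37 with no filter. Tcf4 and Mbd5 turned positive after the correction, at 0.0104 and 0.0806, and stayed so with the block, at 0.0114 and 0.0803. With a mouse left out the values ran from -0.37 to -0.19 for Tcf4, -0.49 to -0.29 for Zeb2, -0.48 to -0.31 for Atrx, -0.18 to -0.11 for Ehmt1, -0.13 to -0.02 for Mbd5 and -0.36 to -0.16 for Mef2c. In 66 of 84 tested alternatives for the 6 genes the direction and side of the threshold held, in 14 the value newly passed and in 4 it reversed. Size did not enter this count. The 66 include the corrected values of Zeb2 (-0.10), Atrx (-0.07) and Mef2c (-0.00), smaller than the uncorrected ones.

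The labels number the mice and state no pairing. Deviations of same-numbered mice from their group means correlated at -0.28, -0.18 and -0.31. The GC trend, opposite between genotypes in mice 2 and 3, enters these correlations, so they cannot decide whether the numbers pair the mice. With the number as a block, 0 of all genes, 0 of the 6 genes and 0 of the related genes passed, with log2 fold changes of -0.26 for Tcf4, -0.39 for Zeb2, -0.38 for Atrx, -0.14 for Ehmt1, -0.06 for Mbd5 and -0.26 for Mef2c. The intervals given for Ehmt1 and Mbd5 include 0, which does not show that they are equal between genotypes.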
